A study of Mus musculus with 16 samples.

Results

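Nr1d1 and Nr1d2 encode REV-ERBα and REV-ERBβ, the paired repressors of the circadian clock, and BMAL1 binding at both genes was described in mouse liver. Members were the intervals of the authors' merged peak table whose nearest gene was Nr1d1 or Nr1d2, at any distance, with the peaks of each library that fell in them. There were 3 such intervals of 7043 in all, holding 35 of the 9986 peaks called. Of these, 2 intervals belong to Nr1d1 and 1 to Nr1d2.

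BMAL1 was mapped by chromatin immunoprecipitation and sequencing, in which an antibody recovers the DNA that a protein was crosslinked to. The 8 BMAL1 libraries came 1 each from control and misaligned C57bl6 mice of either sex, taken at ZT0 or at ZT12, where ZT0 is lights on and ZT12 is lights off in a 12:12 cycle. Each library was made from liver pooled from 3 to 4 mice, 8 to 16 weeks old. All groups, controls included, ate a diet with 42% of calories from fat from the first week of the paradigm, and how misaligned mice were shifted is not given in the sources used here. With 1 pooled library a group there is no replicate error for any single group, so a comparison below rests on whether the 4 matched pairs of libraries moved together.

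BMAL1 works as a dimer with CLOCK and binds E-boxes, short DNA elements in the promoters and enhancers of clock genes. Nr1d1 and Nr1d2 are among its classical targets. Their proteins are nuclear receptors that bind heme and recruit the corepressor NCoR and the histone deacetylase HDAC3 to ROR response elements, among them those of the gene for BMAL1 itself, which closes a second loop of the clock. In liver the REV-ERBs are also known for restraining genes of lipid metabolism.

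The 250 bases before the RefSeq start site of each gene (GRCm38.p6) are shown because the BMAL1 summits lie at different distances from these starts. Both genes are read from the minus strand, and the sequences are given 5′ to 3′ in the direction of the gene, with capitals marking the motif found in each. The Nr1d1 stretch is chr11:98775378-98775627 and the Nr1d2 stretch is chr14:18239107-18239356.
Nr1d1: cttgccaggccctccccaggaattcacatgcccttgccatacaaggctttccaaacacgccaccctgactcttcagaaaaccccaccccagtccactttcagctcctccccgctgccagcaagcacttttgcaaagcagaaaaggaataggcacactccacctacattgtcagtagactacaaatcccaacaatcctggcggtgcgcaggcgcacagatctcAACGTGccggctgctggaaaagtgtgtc
Nr1d2: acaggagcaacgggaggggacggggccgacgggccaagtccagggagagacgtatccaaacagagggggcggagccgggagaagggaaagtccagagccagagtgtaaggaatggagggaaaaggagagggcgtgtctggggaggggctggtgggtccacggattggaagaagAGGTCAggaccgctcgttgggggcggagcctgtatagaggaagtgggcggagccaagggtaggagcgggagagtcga

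In Nr1d1 the capitals mark an E-box variant, CACGTT read on the opposite strand, whose first base is at -28 from the start site. The same bases also lie before the start of the long noncoding RNA gene Gm31862, the first at -11 from that start. The variant lay 20.5 to 58.5 bases from the nearby BMAL1 summit in the 7 libraries that had one, and inside the peak in 7 of 7. In Nr1d2 the capitals mark AGGTCA, a core element bound by REV-ERB and ROR receptors, at -77. It lay 508.5 to 614.5 bases from the BMAL1 summits and inside the peak in 3 of 8 libraries. The windows searched, on both strands, ran from 250 bases before to 50 after the start. Of 32851 such windows in RefSeq, 7.15% held the E-box CACGTG, 4.68% the variant CACGTT, 16.3% AGGTCA and 0.938% the D-box TTATGTAA. Neither REV-ERB window held CACGTG or the D-box, which says only that these letters are not in these windows. The printed bases are 54.8% G or C at Nr1d1 and 63.6% at Nr1d2, beside a median of 52.4% over all windows.

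The broad Nr1d1 interval, called the Nr1d1 gene site here, spans chr11:98772547-98775932 (3386 bases, 19 peaks). The authors' annotation places it in intron 1 of 7 of Nr1d1 (ENSMUSG00000020889) at a distance of -3813 bases from the start site used there, minus meaning upstream. By RefSeq its centre is 1137 bases downstream of the start at base 98775377, and the interval covers that start. The upstream Nr1d1 interval is chr11:98782941-98783909 (969 bases, 8 peaks), which the authors call intergenic and whose centre is at -8048 bases from the RefSeq start. It overlaps the far end of Gm31862, a long noncoding RNA gene that runs away from Nr1d1 from a start 34 bases away. The Nr1d1 gene site overlaps the near end of Gm31862 as well as Nr1d1. The Nr1d2 interval is chr14:18238206-18239473 (1268 bases, 8 peaks), in exon 1 of 8 of ENSMUSG00000021775 by the authors' annotation of its centre, 266 bases downstream of the RefSeq start at 18239106.

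The summits within these intervals fell at 5 positions (map of peaks and summits). The Nr1d1 gene site held a start-site summit, seen in 7 libraries between 5 bases upstream and 33 bases downstream of the RefSeq start, a spread of 38 bases. It also held an inner summit in all 8 libraries, 1437 to 1519 bases downstream, and the start-site and inner summits lay a median of 1480 bases apart. A minor inner summit at 2266 to 2334 bases downstream was called in 4 libraries, namely male control ZT0, male misaligned ZT0, male control ZT12 and female misaligned ZT0. In male misaligned ZT12 a single peak of 3316 bases with its summit at the inner position ran across the start site, so the absence of a separate start-site summit there does not show less binding at the start. The upstream summit stood at -8143 to -8070 bases from the start in all 8 libraries, within a spread of 73 bases. The Nr1d2 summit stood 434 to 540 bases after its start in all 8, within 106 bases.

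**Figure D1:**
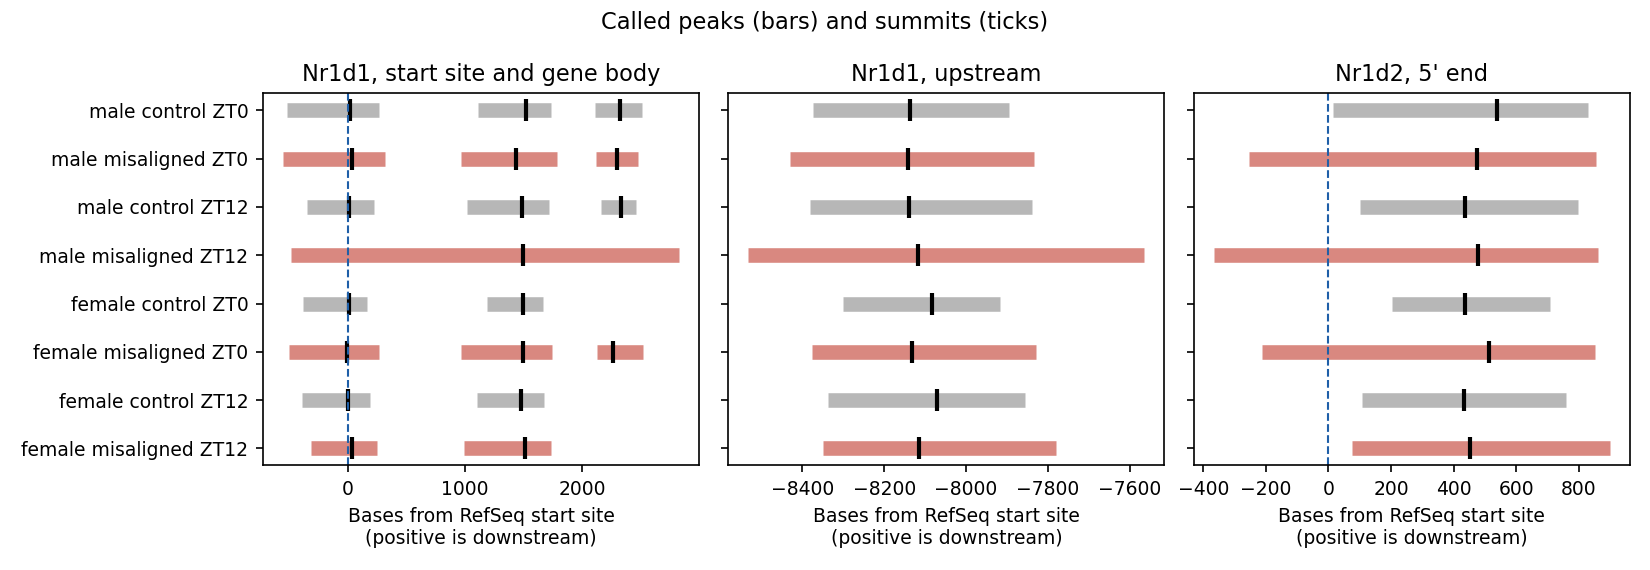
Called BMAL1 peaks (bars) and their summits (ticks) at the 3 REV-ERB intervals, 1 row per library, in bases from the RefSeq start site (dashed line), with control libraries in grey and misaligned in red. Summits line up across libraries, a single peak spans the Nr1d1 gene site in male misaligned ZT12, and the Nr1d2 peak reaches the start site in 3 misaligned libraries.

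The start of Nr1d1 was covered by a peak in 8 of 8 libraries. The start of Nr1d2 was covered in 3, which were the misaligned males at either time and the misaligned females at ZT0. The Nr1d2 peak was 1110 (males, ZT0), 1231 (males, ZT12) and 1067 bases wide in those 3 libraries and 505 to 827 bases wide in the other 5. These 3 libraries also had the 3 longest peak lists, with 1864, 5542 and 1330 peaks beside 141 to 373 elsewhere. Over the lists, peaks on the Y chromosome numbered 1 to 8 in male libraries and 0 or 1 in female ones. The part of list length in the width of the peaks was not tested.

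All 3 REV-ERB intervals were called in every library, 24 of 24 calls. The share of all 7043 intervals called was, in males, 5.21% (control) and 26.4% (misaligned) at ZT0, and 4.06% and 78.7% at ZT12. Among the female libraries the same shares were 3.17% and 18.8% at ZT0, and 1.96% and 3.08% at ZT12. In all, 34 intervals, 0.483% of the total, were called in all 8 libraries. The 24 calls also stood when each list was shortened to its 141 strongest peaks, the length of the shortest list. That cut could remove none of them, as the strongest peak of each interval ranked 19th or better in every library. The calls fell to 16 when the authors' distance to the start was limited to 10 kb, which left out the upstream Nr1d1 site. They fell to 8 at 1 kb, which left Nr1d2 alone.

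By the q value of the authors' peak caller, the Nr1d2 peak ranked 8th (control) and 1st (misaligned) in males at ZT0, and 3rd in both male libraries at ZT12. Among the female libraries it ranked 3rd in control ZT0 and 2nd in the other 3. The mean rank was 3.0 ± 2.14 (SD, n = 8 libraries), beside 6.25 ± 3.24 for the Nr1d1 gene site and 9.75 ± 5.23 for the upstream site. The upstream site was the 1st of 5542 peaks in male misaligned ZT12, with a -log10 q of 442, and the 19th of 225 in female control ZT0, with 16.1. Authors' fold enrichment over local background ran from 9.63 in female control ZT0 to 38.8 in male misaligned ZT0 at Nr1d2.

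Enrichment and q move with depth, so site strength was used to set libraries side by side. It is the number of fragments at the highest summit less the background around it, over the lowest local background found in that library. That divisor, taken over called peaks only, is assumed to scale with depth, which was not tested. The divisor was 4.25 to 6.16 fragments. It was lowest in male misaligned ZT12, the longest list, and highest in male control ZT0, and was 5.67 in female control ZT12, the shortest list. Intervals in brackets are 95% Poisson intervals and cover counting error only. At Nr1d2 the summits of control and misaligned males held 141 and 300 fragments at ZT0, and 262 and 365 at ZT12. Those of control and misaligned females held 86 and 224 at ZT0, and 189 and 285 at ZT12.

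In males, Nr1d2 strength was 21.2 (control) and 67.8 (misaligned) at ZT0, and 58.0 (control) and 83.0 (misaligned, interval 74.4 to 92.2) at ZT12. In females, Nr1d2 strength was 16.1 (control, interval 12.5 to 20.3) and 42.9 (misaligned) at ZT0, and 31.2 and 45.1 at ZT12. The lowest values were thus the control ZT0 livers of both sexes, and their intervals did not reach those of any other library. In the order of the 8 libraries, 4 of 7 neighbouring pairs had overlapping intervals, among them the leading pair of male misaligned libraries. The median of 23 intervals at other genes, described below, was also lowest in control ZT0, at 9.98 in males and 6.88 in females. Overlaps were not counted at those intervals.

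Strength at the Nr1d1 gene site in males was 19.5 (control) and 46.3 (misaligned) at ZT0, and 41.9 and 63.8 at ZT12. Its strength in females was 12.7 (control) and 39.2 (misaligned) at ZT0, and 29.4 and 31.4 at ZT12. The order again ran from control ZT0 of both sexes to male misaligned ZT12, and 5 of 7 neighbouring pairs overlapped.

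The upstream Nr1d1 site in males had a strength of 18.9 (control) and 33.8 (misaligned) at ZT0, and 36.1 and 82.4 at ZT12. Its strength in females was 8.91 (control) and 30.8 (misaligned) at ZT0, and 22.1 and 25.2 at ZT12. Male misaligned ZT12 stood clear of the rest here, with an interval of 73.9 to 91.6 above the 30.6 to 42.3 of the next library, male control ZT12. The median at the other genes was also highest in male misaligned ZT12, at 39.8 beside 20.5 in male control ZT12.

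**Figure D2:**
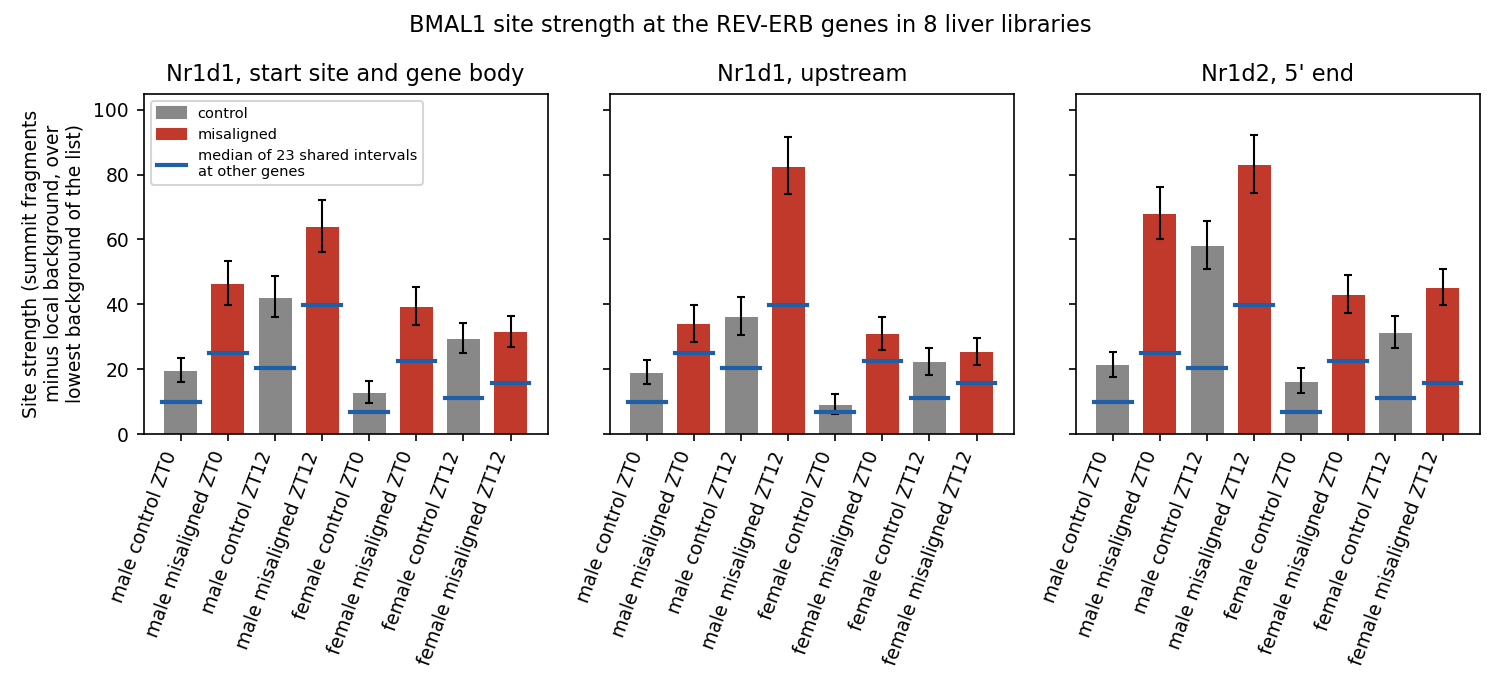
BMAL1 site strength (fragments at the summit less the background around it, over the lowest in the library) at the 3 REV-ERB intervals in each library, with 95% Poisson intervals as error bars, control in grey and misaligned in red. Blue lines are the median of 23 shared intervals at other genes, and every REV-ERB bar stands above its line, from 8.91 beside 6.88 at the upstream site in female control ZT0 to 83.0 beside 39.8 at Nr1d2 in male misaligned ZT12.

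For scale, 26 of the intervals called in all 8 libraries had no peak on high local background (at least 5 times the lowest of the list), and 23 of these lie at other genes. The median strength of the 23 was 9.98 (control) and 25.1 (misaligned) in males at ZT0, and 20.5 and 39.8 at ZT12. In females it was 6.88 and 22.6 at ZT0, and 11.2 and 15.6 at ZT12. Nr1d2 was 1.90 to 2.89 times that median, the Nr1d1 gene site 1.60 to 2.62 times and the upstream site 1.29 to 2.07 times. Among the 26, Nr1d2 was 1st or 2nd in each library, the Nr1d1 gene site 3rd to 10th and the upstream site 3rd to 11th.

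Within a library depth and overall enrichment are shared, so the REV-ERB sites can be compared directly. Nr1d2 was stronger than the Nr1d1 gene site in 8 of 8 libraries, by 0.33 ± 0.19 on the log2 scale (SD, n = 8) or 1.25-fold, with ratios of 1.06 to 1.46. Flipping the signs of the 8 differences, an exact permutation test (two-sided) gave p = 0.0078125, the smallest that 8 libraries allow, and p = 0.015625 after Benjamini-Hochberg adjustment over 4 such tests. The order turned when the strengths of all peaks in an interval were summed, to -0.59 with Nr1d2 higher in 1 of 8 libraries, since the Nr1d1 gene site holds up to 3 peaks and the Nr1d2 site 1. By the authors' fold enrichment Nr1d2 led in 6 of 8.

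Comparisons with the upstream site and between the Nr1d1 summits were chosen after seeing values, so their p-values are descriptive. Nr1d2 also exceeded the upstream Nr1d1 site in 8 of 8 libraries, by 0.57 ± 0.35 on the log2 scale or 1.48-fold (exact permutation, adjusted p = 0.015625). The gap ran from 1.01-fold, in male misaligned ZT12, to 2.00-fold. Between the 2 Nr1d1 intervals, the gene site was higher in 7 of 8 libraries by 0.24 ± 0.29, which did not pass the exact permutation test (adjusted p = 0.0833). Within the gene site, the start-site summit was the higher in 3 of the 7 libraries that had both, and the mean difference from the inner summit was -0.05 ± 0.20 (exact permutation, adjusted p = 0.546875). In these 7 libraries start-site strengths were 12.1 to 44.3 and inner strengths 12.7 to 46.3. The inner summit reached 63.8 in male misaligned ZT12, which had no separate start-site summit. The minor inner summit reached 6.84 to 10.5.

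Other clock genes gave a yardstick for the pair. Of 22 core clock genes listed, 12 had an interval called in all 8 libraries, namely Nr1d1, Nr1d2, the Period genes Per1, Per2 and Per3, the cryptochromes Cry1 and Cry2, the repressors Bhlhe40 and Ciart, and the PAR-bZIP output factors Dbp, Tef and Hlf. By the strongest interval of each gene, Nr1d2 was 1st of the 12 in 6 libraries and 2nd, after Tef, in male misaligned ZT12 (83.0 beside 94.2) and female misaligned ZT0 (42.9 beside 48.0). Nr1d1 was 2nd to 6th. The order is a description of these libraries, and the places of neighbours were not tested.

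**Figure D3:**
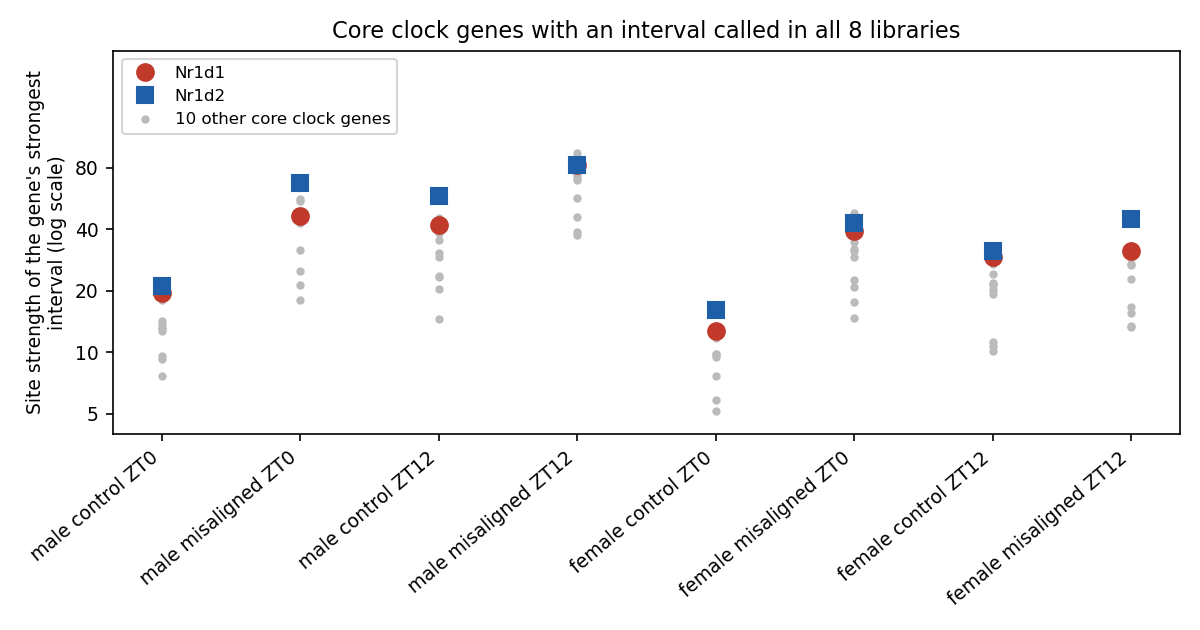
Site strength (log scale) of the strongest interval of each of 12 core clock genes called in all 8 libraries, with Nr1d1 as red circles, Nr1d2 as blue squares and the 10 others as grey points. Nr1d2 heads the column in 6 libraries and lies under Tef in male misaligned ZT12 and female misaligned ZT0.

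Misaligned livers were compared with control livers of the same sex and time, the contrast at the centre of the design. On the depth scale, Nr1d2 was higher in misaligned livers in 4 of 4 strata, but relative to the other shared intervals its mean difference turned to -0.048. Depth-scale ratios were 3.20 in males at ZT0, 1.43 in males at ZT12, 2.67 in females at ZT0 and 1.45 in females at ZT12, a mean log2 difference of 1.04 ± 0.60 (SD, n = 4 strata) or 2.05-fold. The exact permutation test gave p = 0.125, the smallest that 4 strata allow, and an adjusted p of 0.161 over 9 tests, so no factor comparison here could pass 0.05. The counting intervals of the 2 libraries did not overlap in 4 of 4 strata. Overlaps were counted for the 3 REV-ERB sites only. Their share over the 26 shared intervals is not known, so the count does not set Nr1d2 apart.

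The Nr1d1 sites went the same way on the depth scale, with relative means of -0.19 at the gene site and -0.083 upstream, which have the opposite sign. At the gene site the depth-scale ratios were 2.38, 1.52, 3.10 and 1.07 in the same order of strata, a mean log2 difference of 0.90 ± 0.68 or 1.86-fold. At the upstream site they were 1.79, 2.28, 3.46 and 1.14, a mean of 1.00 ± 0.67 or 2.00-fold (exact permutation, adjusted p = 0.161 for each site). In both, females at ZT12 showed the smallest ratio, and only that pair had overlapping counting intervals.

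Higher strength in misaligned livers in 4 of 4 strata was seen in 20 of the 26 shared intervals, 76.9%, the 3 REV-ERB sites among them. The median ratio of the 26 was 2.33 in males at ZT0, 2.28 in males at ZT12, 2.96 in females at ZT0 and 1.25 in females at ZT12. The REV-ERB sites were 12th (Nr1d2), 17th (upstream) and 24th (Nr1d1 gene site) of the 26 by mean difference, with mean folds of 2.05, 2.00 and 1.86 beside a median of 2.02. Relative to the other shared intervals, the ratio at the Nr1d1 gene site was 0.993 and 0.746 in males at ZT0 and ZT12, and 1.05 and 0.764 in females, and on this scale each of the 3 sites was higher in some strata and lower in others.

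**Figure D4:**
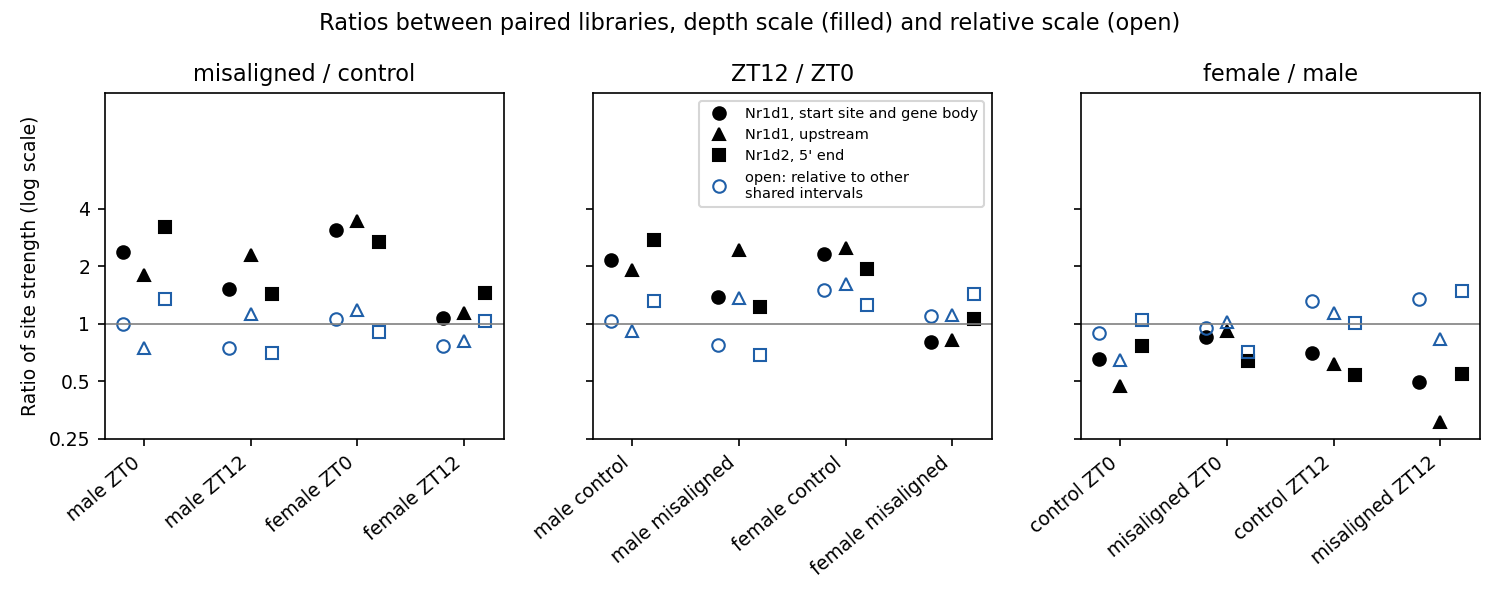
Ratios of site strength between matched libraries (log axis) for treatment, time and sex at the 3 REV-ERB sites, 4 strata each, on the depth scale (black) and relative to the other shared intervals (blue, open). All black treatment points lie above 1 and all black sex points below 1, but the mean turns sign on the relative scale for treatment at all 3 sites and for sex at the Nr1d1 gene site and Nr1d2, while the time means keep their sign but shrink, at Nr1d2 from 0.69 to 0.17 on the log2 scale.

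ZT12 was compared with ZT0 within sex and treatment, since binding of BMAL1 changes over the day. Nr1d2 was higher at ZT12 in 4 of 4 strata, by 2.74-fold in control males, 1.22-fold in misaligned males, 1.94-fold in control females and 1.05-fold in misaligned females. The mean was 0.69 ± 0.63 on the log2 scale, 1.62-fold (exact permutation p = 0.125, adjusted p = 0.161). Relative to the other shared intervals it was 0.17, with 3 of 4 strata higher, and by rank within the list 0.10, with 2 of 4 higher. Of the 26 shared intervals 5, or 19.2%, were higher at ZT12 in 4 of 4 strata, Nr1d2 among them. Nr1d2 was 8th of the 26 by mean difference. Its counting intervals were apart in 2 of 4 strata, those of the control livers, a count not made for the other shared intervals. The median ratio of the 26 was 2.13 in control males, 1.72 in misaligned males, 1.84 in control females and 0.788 in misaligned females.

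The Nr1d1 sites were higher at ZT12 in 3 of 4 strata. Ratios at the gene site were 2.15 in control males, 1.38 in misaligned males, 2.32 in control females and 0.802 in misaligned females, a mean of 0.62 ± 0.71. At the upstream site they were 1.91, 2.43, 2.48 and 0.818, a mean of 0.81 ± 0.75 (exact permutation p = 0.25 for each site, adjusted p = 0.25). Misaligned females, the exception at both sites, were also the stratum in which the median of the 26 fell to 0.788. Leaving out the female misaligned ZT12 library dropped that stratum, so the gene site's mean could only rise, to 0.93. Without male misaligned ZT12 it was 0.67, with 2 of 3 strata higher. Relative to the other shared intervals the mean was 0.095 at the gene site and 0.29 upstream, each with 3 of 4 strata higher.

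Female livers were compared with male livers of the same treatment and time. Nr1d2 was lower in females in 4 of 4 strata on the depth scale, with a mean of -0.71 ± 0.23 that turned to 0.031 relative to the other shared intervals. The ratios of female to male were 0.760 (control) and 0.633 (misaligned) at ZT0, and 0.538 and 0.544 at ZT12. The Nr1d1 gene site was lower by a mean of -0.60 ± 0.32, which turned to 0.14 on the relative scale. The upstream site was lower by -0.91 ± 0.66, with the lowest ratio, 0.306, at misaligned ZT12 (exact permutation p = 0.125, adjusted p = 0.161 for each of the 3 sites). Its relative mean was -0.17, with 2 of 4 strata lower. Of the 26 shared intervals 18, or 69.2%, were lower in females in 4 of 4 strata, the 3 REV-ERB sites among them. The median fold of the 26 was 0.604 beside 0.612 at Nr1d2.

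Over the 8 libraries the strengths of Nr1d2 and the Nr1d1 gene site, each relative to the other shared intervals, had a Pearson r of 0.66 (exact permutation p = 0.0386, adjusted 0.0386) and a Spearman rho of 0.81 (exact permutation p = 0.0218, adjusted 0.0290). Without the 2 libraries farthest from the median at Nr1d1, male misaligned ZT12 and female control ZT12, r was 0.69. The points share their library and nearly the same denominator. On the depth scale, where they also share overall enrichment and any depth that the divisor does not remove, r was 0.98. Between Nr1d2 and the upstream Nr1d1 site the relative-scale r was 0.014, the 16th of the 25 intervals set against Nr1d2. The difference between these 2 values of r was not tested.

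By the same relative strengths, the intervals most like the Nr1d1 gene site among 25 compared were those of Gm26249 (r = 0.72), Nr1d2 (0.66) and RP23-134H19.3 (0.55). For Nr1d2 they were Gm26249 (0.79), Igsf8 (0.77) and Dbp (0.72), beside a median r of 0.17. These are descriptions over 8 libraries. The 2 intervals of Nr1d1 itself had an r of 0.28 with each other, below 10 of the 25 intervals set against the gene site.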

How the data were processed

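The aligner was BWA (0.7.17-r1188), the build GRCm38 and the peak caller MACS2 (2.2.7.1), per the submitters' processing notes; parameters and the use of the IgG libraries as control are not given in the sources used here, and IgG libraries were not used here. The authors deposited 1 peak list per BMAL1 library, with each summit's fold enrichment as a ratio and its -log10 p and -log10 q, and a merged table with the calls and the nearest gene. Whole fragments and local background at each summit were solved for from the ratio and the -log10 p (relative tolerance 0.0001) for 100% of peaks, after a test on simulated data. A summit with a local background at least 5 times the lowest of its list was called of high background. Peaks were matched to intervals by at least 1 base, the highest peak of a library represented an interval, and summits within 300 bases were 1 position.

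Differences were tested by exact two-sided sign-flip permutation over strata or libraries, with Benjamini-Hochberg adjustment. Interval annotation is the authors', and start sites and sequences are from RefSeq (GRCm38.p6). The genes named were Nr1d1 and Nr1d2, the 3 intervals most like each, core clock genes called in all 8 libraries, and neighbours. The members and lists were chosen with earlier results of these data known; the comparisons with the upstream site and between the Nr1d1 summits, the linkage of summits and the leaving out of each remaining library were chosen after seeing values. Alternatives were fold enrichment, rank, relative strength, summed peaks, q thresholds, equal list lengths and distance limits. Read depth is unknown. Python 3.11.15, numpy 2.4.6, pandas 2.3.3 and scipy 1.17.1 were used.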

Additional observations from a re-analysis of the deposited data

How the results depend on the processing

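The treatment, time and sex tests could not pass 0.05 in any setting, so only their direction and size can be compared. Rank is in other units, so for it only the direction can be. Some alternatives could not differ. The upstream Nr1d1 and Nr1d2 sites held 1 peak in each library, so summing peaks left their values unchanged. For sex, leaving out either misaligned ZT12 library dropped the same pair and gave the same mean. With these counted, direction was kept in 14 of 18 alternatives for treatment, 18 of 18 for time and 14 of 18 for sex. The time means nevertheless shrank at all 3 sites relative to the other shared intervals and by fold enrichment. They grew without female misaligned ZT12, to 0.93 at the Nr1d1 gene site, 1.18 upstream and 0.90 at Nr1d2. At the Nr1d1 gene site the mean of 0.62 was 0.095 relative to the other shared intervals, 0.17 by fold enrichment and 0.21 with peaks summed, the latter pair with 2 of 4 strata higher. At Nr1d2 the mean of 0.69 was 0.17 relative, 0.41 by fold enrichment and 0.10 by rank. At the upstream site the mean of 0.81 was 0.29 relative and 1.52 by rank. Relative to the other shared intervals, the treatment mean turned to -0.19 at the Nr1d1 gene site, -0.083 upstream and -0.048 at Nr1d2, and the sex mean to 0.14 at the Nr1d1 gene site and 0.031 at Nr1d2. By rank within the list, the treatment mean at the Nr1d1 gene site was -0.23, and the sex mean was 0.73 there and 0.40 at Nr1d2. The causes of these changes were not tested. The Nr1d2 minus Nr1d1 difference was -0.59 when peaks were summed, and 0.29 to 0.36 when each library was left out in turn. REV-ERB calls were 8 when the authors' distance to the start was limited to 1 kb, which left Nr1d2 alone. By RefSeq, a peak covered the Nr1d1 start in 8 of 8 libraries. Motifs around summits were not run, as no genome was used here. The comparisons pair libraries by sex, treatment or time. No paired analysis by replicate number could be added, as each group had 1 library. Depth is approximated only through the lowest background, an untested stand-in. Counting intervals rest on recovered fragments and were not set against replicates.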

Other observations

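The surroundings of the genes differed. Within 50 kb of the Nr1d1 start, 5 other intervals were called. Of these, 3 lie in introns of Thra, the thyroid hormone receptor gene next to Nr1d1, and were called in 1, 1 and 2 libraries. An intergenic interval nearest Msl1 was called in 1, and an interval at the Casc3 promoter in 3, the misaligned males at either time and the misaligned females at ZT0. All 5 were called in male misaligned ZT12, where 78.7% of all intervals were called. Within 50 kb of the Nr1d2 start no other interval was called in any of the 8 libraries.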
